A study of Mus musculus with 31 samples.

Results

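The genes described here mark macrophages and other myeloid cells, the innate immune cells that take up debris, antibody-coated particles and microbes and that settle in most solid tumors. A list of 48 such genes was chosen by symbol, with earlier results of these data known. *Lyn* was not analysed here, and the other 47 had a row among the 17306 rows of the expression table. They were sorted by role into Fc receptors with their signaling adaptors, C-type lectins, scavenger and uptake receptors, complement and lysosomal genes, lineage receptors, and genes of leukocyte signaling and cytoskeleton. Of the 47, 30 exceeded log2 4 in at least 10 of 31 tumors and were tested among 9322 such rows. Because this filter ignores genotype, a gene that passed it only through the *MYCN* tumors had to be low elsewhere, and this applies to *Fcgr4*, *Clec4a3*, *Cd72*, *Ptpn6*, *Cytip* and *Cd53*, which exceeded log2 4 in at most 3 of the 21 *MYCN/Alk* tumors.

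The tumors were neuroblastomas of mice that all carried the *TH-MYCN* transgene, in which the tyrosine hydroxylase promoter drives human *MYCN* in sympathetic lineage cells. In addition, 11 tumors came from mice with the knock-in *Alk* F1178L mutation and 10 from mice with the knock-in *Alk* R1279Q mutation (*MYCN/Alk* tumors), and 10 came from mice with wild-type *Alk* (*MYCN* tumors). A knock-in allele is present in every cell of the animal, so the macrophages of a *MYCN/Alk* tumor carry it as the tumor cells do. The labels give the strain of every tumor only as either of 2 choices, 129S2 or 129B6F1. The study's own tumor list, not the labels, assigns 18 of the 21 *MYCN/Alk* tumors to a background, with sex and age. F1178L mice were 9.14 to 19.1 weeks old in 129B6F1 (n = 6) and 5.14 to 6.29 weeks in 129S2 (n = 4), and R1279Q mice were 16.6 to 27.1 weeks old in 129B6F1 (n = 3) and 8.29 to 10.7 weeks in 129S2 (n = 5), all 5 of the last males while the other sets held both sexes. Background therefore runs with age, and mutation runs with age within a background. That list holds no *MYCN* tumor, so the background and age of the *MYCN* tumors are not known here. In every comparison with *MYCN* tumors, genotype therefore cannot be told apart from background or age. All p values treat tumors as independent. F1178L tumors 1 and 2 were listed with the same background, sex and age, as were R1279Q tumors 16 and 19, and mice of both *MYCN/Alk* genotypes can carry tumors at several sites. Whether tumors of such a pair came from 1 mouse cannot be told from the sources used here.

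Values are log2 expression after GCRMA, a normalization that subtracts a background predicted from the probe's sequence. GCRMA gives no detection call, so log2 4 served as the limit of what was measured; the lower quartile of every array lay between 2.33 and 2.45. For a group averaging under this limit, its values under log2 4 were raised to 4, and the difference is given as at least that large. These are whole tumors, in which fewer cells of a type and less RNA per cell cannot be told apart.

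Macrophages recognize antibody-coated targets through Fc gamma receptors, which pass the signal to the adaptor *Fcer1g*, and many lectins and *Trem2* signal through its relative *Tyrobp*. Both adaptors carry an ITAM, a tyrosine motif that recruits the kinase *Syk*, whereas *Fcgr2b* carries the inhibitory counterpart and damps the response. *Csf1r*, the receptor for the growth factor *Csf1*, keeps most macrophages alive, and the transcription factor PU.1, encoded by *Spi1*, binds promoters of many genes of the lineage at sites with the core GAGGAA.

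The tumors held macrophage transcripts in every genotype. Of 10 defining markers, *Csf1r*, *Adgre1*, *Cd68*, *Aif1*, *C1qa*, *C1qb*, *C1qc* and *Mrc1* were above log2 4 in all 31 tumors, and *Fcgr1* and *Itgam* were above it in 0. *Lyz2*, lysozyme, was at 9.64 to 13.5 over all tumors. *Spi1* exceeded log2 4 in 1 tumor only, *MYCN* tumor 34, at 4.11, so its level could not be compared. The other members not tested stayed below the limit in most tumors: *Marco*, *Timd4*, *Vav1* and *Dock2* in 31 tumors, *Trem2*, *Msr1*, *Vsig4*, *Cd86* and *Lcp2* in all but 1, *Pld4* in all but 4, *Clec4d* in all but 5, *Cd14* in all but 6, and *Cybb* and *Cd163* in all but 7. *Cybb*, a subunit of the phagocyte NADPH oxidase, was above the limit in 0 F1178L, 1 R1279Q and 6 *MYCN* tumors, whereas the hemoglobin scavenger receptor *Cd163* was above it in 5 F1178L, 1 R1279Q and 1 *MYCN* tumor.

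**Figure D1:**
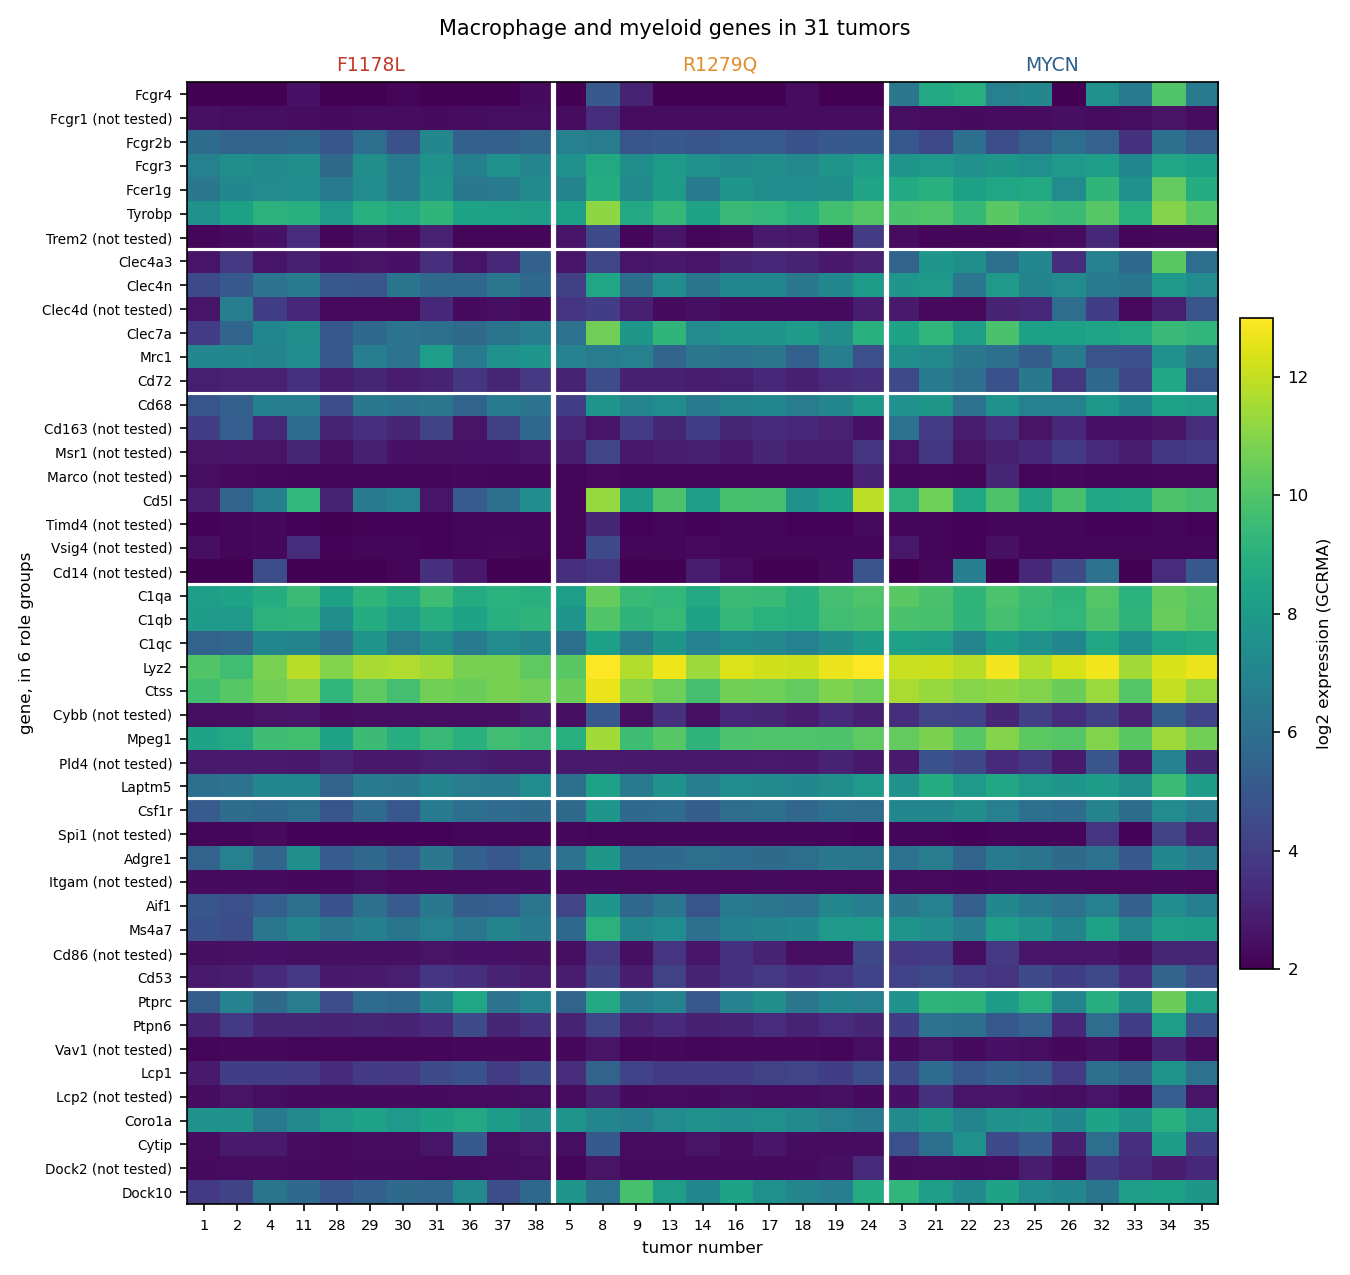
Log2 expression (GCRMA, color scale) of 47 macrophage and myeloid genes (rows, in the 6 role groups divided by white lines) in 31 tumors (columns, by genotype and tumor number). *Fcgr4*, *Clec4a3*, *Cd72* and *Cytip* are dark in nearly all F1178L and R1279Q tumors, *Cd5l* and *Clec7a* are dark mainly in F1178L tumors, and the complement genes *C1qa*, *C1qb* and *C1qc* are measured in every tumor.

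The promoters of the 5 members that differed most between *MYCN/Alk* and *MYCN* tumors and have a promoter window are shown, to set the PU.1 core beside the genes that the results turn on. Each RefSeq window (build GRCm38.p6) runs 250 bases before to 50 after the first listed start and is printed in the direction of transcription. Capitals mark the core, as GAGGAA or, on the other strand, as TTCCTC. The windows lie at chr1:171018676-171018975 on the plus strand for *Fcgr4*, chr6:122952265-122952564 on the plus strand for *Clec4a3*, chr2:58160073-58160372 on the minus strand for *Cytip*, chr4:43454577-43454876 on the minus strand for *Cd72* and chr3:87357631-87357930 on the plus strand for *Cd5l*.
Fcgr4: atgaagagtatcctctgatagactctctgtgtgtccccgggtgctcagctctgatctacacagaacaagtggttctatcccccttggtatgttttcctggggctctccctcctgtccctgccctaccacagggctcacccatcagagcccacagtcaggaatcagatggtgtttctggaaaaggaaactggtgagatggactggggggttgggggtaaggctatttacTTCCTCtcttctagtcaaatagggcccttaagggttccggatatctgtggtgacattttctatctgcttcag
Clec4a3: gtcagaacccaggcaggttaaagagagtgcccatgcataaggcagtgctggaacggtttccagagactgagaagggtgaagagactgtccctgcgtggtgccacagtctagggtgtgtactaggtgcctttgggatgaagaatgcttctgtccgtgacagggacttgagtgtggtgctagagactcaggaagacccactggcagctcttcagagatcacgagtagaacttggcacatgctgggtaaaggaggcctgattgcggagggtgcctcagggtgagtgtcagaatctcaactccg
Cytip: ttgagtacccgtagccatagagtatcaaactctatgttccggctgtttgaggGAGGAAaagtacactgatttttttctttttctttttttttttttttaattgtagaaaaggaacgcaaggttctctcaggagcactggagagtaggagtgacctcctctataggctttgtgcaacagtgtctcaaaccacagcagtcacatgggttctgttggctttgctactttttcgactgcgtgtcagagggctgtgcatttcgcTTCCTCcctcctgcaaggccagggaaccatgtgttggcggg
Cd72: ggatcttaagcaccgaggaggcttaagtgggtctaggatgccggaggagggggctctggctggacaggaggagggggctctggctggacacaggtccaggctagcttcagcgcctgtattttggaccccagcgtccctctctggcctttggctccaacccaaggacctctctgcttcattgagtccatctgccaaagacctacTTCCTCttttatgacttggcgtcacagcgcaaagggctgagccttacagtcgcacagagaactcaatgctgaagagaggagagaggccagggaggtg
Cd5l: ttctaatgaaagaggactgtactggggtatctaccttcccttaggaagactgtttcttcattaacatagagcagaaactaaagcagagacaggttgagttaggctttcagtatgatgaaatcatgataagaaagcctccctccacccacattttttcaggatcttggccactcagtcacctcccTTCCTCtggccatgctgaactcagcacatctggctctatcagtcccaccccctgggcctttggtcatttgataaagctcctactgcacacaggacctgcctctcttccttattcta

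Counted from the start, the core began at -22 in *Fcgr4*, at -47 in *Cd72* and at -66 in *Cd5l*, and *Cytip* held 2 cores, at -198 and at 10. The window of *Clec4a3* held none, while that of its second listed start held 1, at -50. Over the members, 27 of the 38 with a window held at least 1 core on either strand (71.1%), and over all mouse genes with a window 7652 of 27025 did (28.3%). The members without it included *Lyz2*, *Mpeg1*, *Dock10*, *Fcer1g*, *Fcgr2b*, *Lcp1* and *Ptpn6*, so that genes with large and with small differences stood in both classes. A match describes letters in a window, not a bound site.

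Relative to *MYCN* tumors, the macrophage and myeloid genes were lower in *MYCN/Alk* tumors as the mean of both mutations. Of 30 members tested, 25 were lower and 0 were higher past an adjusted p of 0.05 (limma with Benjamini-Hochberg adjustment over all rows tested), where 21.6% of all rows tested were lower and 19% higher. The median log2 fold change was -1.003 over these members and -0.04 over all rows. Because the list was set with earlier results of these data known, these counts describe the members and do not test the list. The 19 members above log2 4 in all 31 tumors, whose entry did not depend on a low group, showed 15 lower and 0 higher, against 22% lower among the 7500 rows of that kind, with a median of -0.86 against -0.04. With a 2-fold change required as well, 15 of the 30 remained, and 325 of all 9322 rows. The 4 tumors that stood apart were *MYCN* tumors 26 and 34, R1279Q tumor 8 and F1178L tumor 36. Leaving them out, a choice made after the data were seen, gave 23 members, where 18.1% of all rows were lower.

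Taken by mutation against the same 10 *MYCN* tumors, 26 of the 30 members were lower in F1178L tumors (26.4% of all rows were lower, 20.1% higher) and 11 were lower in R1279Q tumors (7.04% of all rows were lower, 10.8% higher). In neither was a member higher past the threshold. Among the 19 members above log2 4 everywhere, 16 were lower with F1178L (27.4% of such rows) and 4 with R1279Q (6.28% of such rows), namely *Fcer1g*, *Laptm5*, *Csf1r* and *Ptprc*. The call of *Csf1r* with R1279Q lay at the threshold (adjusted p = 0.0495), and leaving out any of 23 tumors in turn ended it. The median log2 fold change of the 30 was -1.42 with F1178L and -0.62 with R1279Q, against -0.07 and -0.01 over all rows. In R1279Q the count was 11 with the 5 tumors of 129S2 alone, where 6.89% of all rows were lower. With the 3 tumors of 129B6F1, tumors 5 and 8 among them, the count was 2, *Fcgr4* and *Clec4a3*, where 3.55% of all rows were lower. It was also 4 when rows had to exceed log2 6 in 10 tumors, under which the other 7 were no longer tested, and 17 with arrays weighted by their quality, with which 18.7% of all rows were lower.

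**Figure D2:**
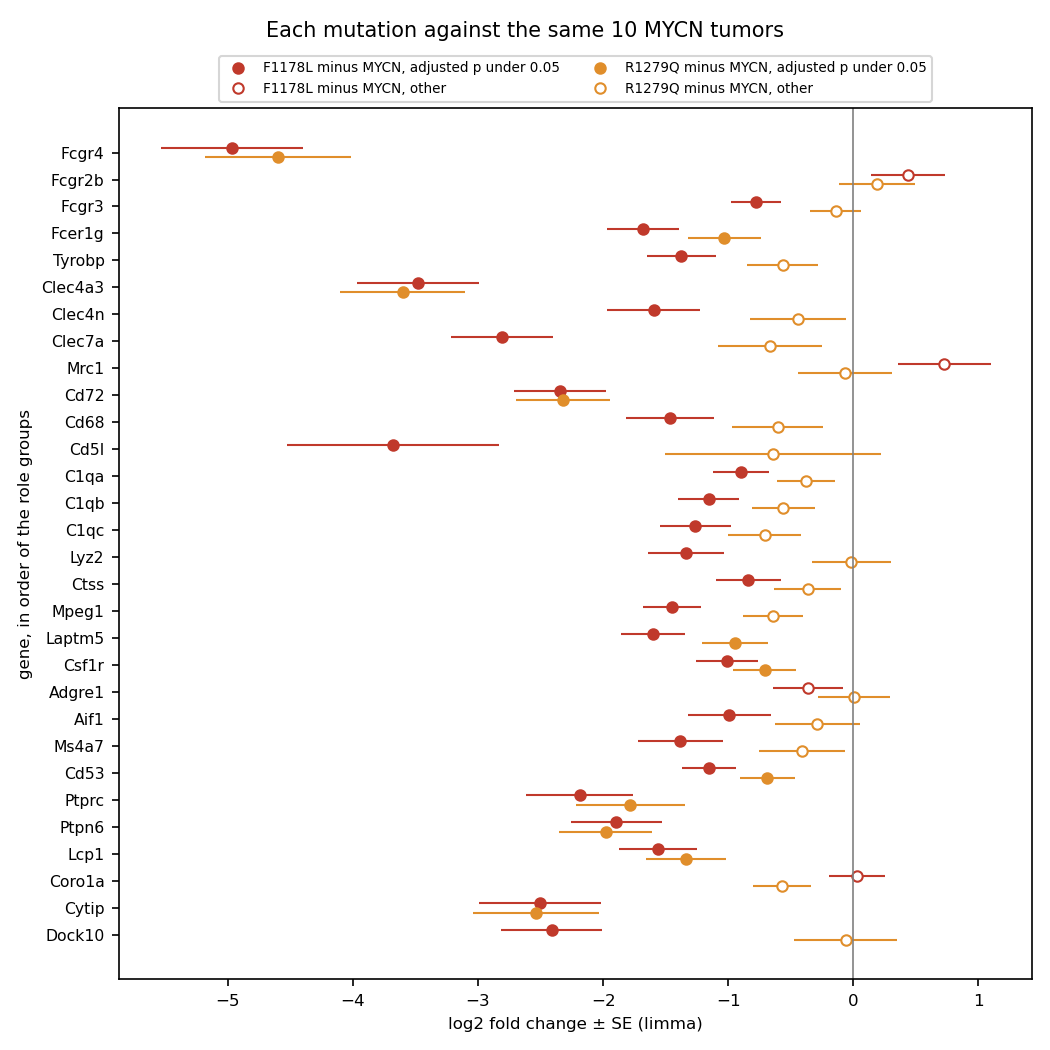
Log2 fold change (x axis, ± SE from limma) of the 30 tested genes (y axis, in the order of the role groups) in F1178L tumors (red) and R1279Q tumors (orange), each minus the same 10 *MYCN* tumors; filled points have an adjusted p under 0.05. Nearly all points lie left of 0, the F1178L points of *Cd5l*, *Clec7a* and *Dock10* lie far left of their R1279Q points, and both points lie together at *Fcgr4*, *Clec4a3*, *Cd72*, *Ptpn6* and *Cytip*, where both mutations are near the lowest values measured.

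Among the Fc receptors, *Fcgr4* separated the genotypes most. This activating receptor of mouse monocytes and macrophages for IgG was at 1.90, 1.97 and 2.52 in F1178L tumors (lowest, median, highest), at 1.95, 1.98 and 5.09 in R1279Q tumors and at 1.97, 6.94 and 10.01 in *MYCN* tumors. All F1178L tumors and 9 of 10 R1279Q tumors were below log2 4, as was *MYCN* tumor 26, while the other 9 *MYCN* tumors began at 6.35, above every *MYCN/Alk* tumor. The difference was at least 2.98 on the log2 scale, or 7.87-fold (adjusted p = 5.09e-08). *Fcgr4* passed the filter through 9 *MYCN* tumors and 1 R1279Q tumor, so its p value is given as a description. The same holds for *Clec4a3*, *Cd72*, *Ptpn6*, *Cytip* and *Cd53*, the other genes named above for this filter.

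*Fcer1g*, the adaptor that *Fcgr4*, *Fcgr3* and *Fcgr1* share, was at 6.35, 7.13 and 7.75 in F1178L tumors, at 6.54, 7.43 and 8.79 in R1279Q tumors and at 7.29, 8.70 and 10.34 in *MYCN* tumors. Its groups overlapped, with 8 of 10 *MYCN* tumors above the highest F1178L tumor and 4 above the highest R1279Q tumor. The log2 fold change was -1.36 ± 0.25 (SE), a 2.56-fold lower level in *MYCN/Alk* tumors (adjusted p = 0.000115). *Tyrobp*, the other ITAM adaptor, was at 7.64, 8.39 and 9.21 in F1178L tumors, at 8.21, 9.29 and 11.14 in R1279Q tumors and at 8.94, 9.91 and 10.96 in *MYCN* tumors, so that 9 *MYCN* tumors exceeded every F1178L tumor and 0 exceeded R1279Q tumor 8. It fell by 0.97 ± 0.24 in *MYCN/Alk* tumors (adjusted p = 0.00235). With R1279Q alone it differed from *MYCN* by -0.56 ± 0.28 and did not pass (adjusted p = 0.166). *Fcgr3*, the activating receptor beside *Fcgr4* and *Fcgr2b* in the same gene cluster, fell by 0.46 ± 0.18 (adjusted p = 0.0373).

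The inhibitory receptor *Fcgr2b* did not pass the test in either direction. It averaged 5.61 ± 0.61 in F1178L tumors (SD, n = 11), 5.36 ± 0.72 in R1279Q tumors and 5.17 ± 0.79 in *MYCN* tumors (n = 10 each). The difference of *MYCN/Alk* from *MYCN* was 0.31 ± 0.26 (95% confidence interval -0.22 to 0.85, adjusted p = 0.356), and all 21 *MYCN/Alk* tumors were above the lowest *MYCN* tumor. Within this gene cluster, then, *Fcgr4* and *Fcgr3* were lower and *Fcgr2b* did not pass the test. For *MYCN/Alk* tumors the call of *Fcgr3* was not firm, as leaving out any of 9 tumors in turn ended it, and so did 7 other settings, quantile normalization and the absence of a filter among them. With F1178L alone it held without each of those tumors. Fc receptors resemble each other closely, and whether probes of the array tell them apart fully was not tested. The same holds for *Clec4a3* and the other *Clec4a* lectins and for *Lyz2* and *Lyz1*.

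Of the C-type lectins, *Clec4a3*, *Cd72*, *Clec7a* and *Clec4n* fell and the mannose receptor *Mrc1* did not. *Clec4a3*, a receptor of myeloid cells, was at 2.54, 2.62 and 5.42 in F1178L tumors, at 2.61, 2.89 and 4.34 in R1279Q tumors and at 3.46, 6.42 and 10.18 in *MYCN* tumors. F1178L tumor 38 and R1279Q tumor 8 were the only *MYCN/Alk* tumors above log2 4, and 9 of 10 *MYCN* tumors, tumor 26 being the exception, exceeded both. The difference was at least 2.53 on the log2 scale, 5.77-fold (adjusted p = 3.74e-07). *Cd72*, an inhibitory coreceptor best known from B cells and found on mouse macrophages too, was at 2.86, 3.12 and 3.83 in F1178L tumors, at 2.84, 3.002 and 4.62 in R1279Q tumors and at 3.80, 5.32 and 8.53 in *MYCN* tumors. Its difference was at least 1.53 (adjusted p = 2.54e-06).

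*Clec7a*, dectin-1, the receptor for fungal beta-glucans, showed another order. It was at 3.92, 6.01 and 7.49 in F1178L tumors, at 6.15, 7.80 and 10.61 in R1279Q tumors and at 8.17, 8.55 and 9.85 in *MYCN* tumors. Every *MYCN* tumor was above every F1178L tumor, and no *MYCN* tumor was above the highest R1279Q tumor. The log2 fold change was -2.81 ± 0.41 with F1178L (adjusted p = 3.27e-06) and -0.67 ± 0.42 with R1279Q (adjusted p = 0.272). *Mpeg1* and *Laptm5* were the other members whose F1178L and *MYCN* tumors did not overlap, 3 of 30, where 1.02% of all rows had *MYCN* tumors wholly above F1178L tumors. *Mrc1* averaged 6.96 ± 0.86 in F1178L, 6.17 ± 0.72 in R1279Q and 6.23 ± 1.04 in *MYCN* tumors, a difference of 0.33 ± 0.33 for *MYCN/Alk* (adjusted p = 0.438). It passed as higher in F1178L than in *MYCN* tumors without F1178L tumor 28 and with the F1178L tumors of 129B6F1 alone.

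Among scavenger and uptake receptors only *Cd5l* and *Cd68* were tested. *Cd5l*, a secreted protein of tissue macrophages grouped here for its scavenger domains, was at 2.63, 5.996 and 9.28 in F1178L tumors, at 2.14, 8.98 and 11.91 in R1279Q tumors and at 8.43, 9.38 and 10.55 in *MYCN* tumors. The 10 *MYCN* tumors lay close together, 10 of 11 F1178L tumors were below all of them, and the R1279Q tumors reached from R1279Q tumor 5, the lowest tumor of all, to R1279Q tumor 24, the highest. The log2 fold change of *MYCN/Alk* was -2.16 ± 0.74 (adjusted p = 0.0212). *MYCN* tumor 26, where *Fcgr4* was below log2 4, had 9.79 of *Cd5l*, within the range of the other *MYCN* tumors. *Cd68*, a lysosomal membrane protein widely used to stain macrophages, was at 4.63, 6.20 and 6.76 in F1178L tumors, at 4.02, 7.02 and 7.87 in R1279Q tumors and at 6.14, 7.59 and 8.28 in *MYCN* tumors. It overlapped widely and fell by 1.03 ± 0.31 (adjusted p = 0.00899).

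All 7 tested complement, lysosome and effector genes were above log2 4 in every tumor, and all 7 were lower in *MYCN/Alk* tumors, though the calls of *Lyz2* (adjusted p = 0.0448) and *Ctss* were lost without any of 19 and 5 single tumors and with no filter. Their log2 fold changes lay between -0.60 for *Ctss* and -1.27 ± 0.23 for *Laptm5*, a lysosomal protein of leukocytes (adjusted p = 6.51e-05). *Laptm5* was at 5.50, 6.57 and 7.34 in F1178L tumors, at 6.07, 7.28 and 8.30 in R1279Q tumors and at 7.49, 8.01 and 9.52 in *MYCN* tumors. *Mpeg1*, perforin-2, a pore-forming protein of phagocytes, was at 8.34, 9.39 and 9.69 in F1178L tumors, at 8.96, 9.94 and 11.48 in R1279Q tumors and at 10.10, 10.496 and 11.38 in *MYCN* tumors. It fell by 1.04 ± 0.21, 2.06-fold (adjusted p = 0.000228).

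The complement subunits *C1qa*, *C1qb* and *C1qc*, made mostly by macrophages, moved alike. *C1qc* was at 5.52, 6.90 and 7.69 in F1178L tumors, at 6.06, 7.28 and 8.20 in R1279Q tumors and at 7.02, 8.10 and 8.75 in *MYCN* tumors, a fall in *MYCN/Alk* tumors (log2 fold change -0.99 ± 0.25, adjusted p = 0.00235). The log2 fold changes of *C1qa* and *C1qb* were -0.64 ± 0.20 and -0.86 ± 0.22. With F1178L all 3 subunits passed the test, and with R1279Q none did (adjusted p = 0.0846 to 0.255). Only *Laptm5* of the 7 genes passed with R1279Q, at -0.95 ± 0.26 (adjusted p = 0.0122).

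Of the lineage receptors, *Csf1r*, *Ms4a7* and *Cd53* fell and *Adgre1* and *Aif1* did not pass the test. *Csf1r* was at 4.87, 5.84 and 6.57 in F1178L tumors, at 5.26, 5.88 and 7.78 in R1279Q tumors and at 5.86, 6.86 and 7.44 in *MYCN* tumors, with the highest value of all in R1279Q tumor 8. It fell by 0.86 ± 0.22, 1.81-fold (adjusted p = 0.00244), although not when the *MYCN/Alk* tumors were limited to 129B6F1, where the difference was -0.62 (adjusted p = 0.109). *Ms4a7*, a tetraspan protein of mature macrophages, was at 4.59, 6.34 and 6.91 in F1178L tumors, at 5.71, 7.10 and 9.08 in R1279Q tumors and at 6.71, 7.71 and 8.29 in *MYCN* tumors. Only the F1178L tumors lay mostly under the *MYCN* range, and R1279Q tumors reached above it. *Ms4a7* fell by 0.90 ± 0.30 (adjusted p = 0.017), again not with the 129B6F1 tumors alone, at -0.96 (adjusted p = 0.0974). *Cd53*, a tetraspanin of all leukocytes, was at 2.74, 2.95 and 3.81 in F1178L tumors, at 2.86, 3.66 and 4.24 in R1279Q tumors and at 3.44, 4.32 and 5.61 in *MYCN* tumors, close to the limit in each. Above log2 4 were 0 F1178L, 3 R1279Q and 7 *MYCN* tumors, a difference of at least 0.26 (adjusted p = 0.000383).

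*Adgre1*, which encodes the mouse macrophage antigen F4/80, stood apart from the rest of this group. It was at 5.001, 5.57 and 7.49 in F1178L tumors, at 5.70, 5.97 and 7.81 in R1279Q tumors and at 5.07, 6.22 and 7.14 in *MYCN* tumors. The groups overlapped nearly fully, and 20 of 21 *MYCN/Alk* tumors were above the lowest *MYCN* tumor. The difference was -0.18 ± 0.25 with a 95% confidence interval of -0.68 to 0.33 (adjusted p = 0.594), and its sign turned with the 129B6F1 tumors alone. With arrays weighted by their quality, under which 32.3% of all rows were lower, *Adgre1* passed at -0.48 (adjusted p = 0.0376). *Aif1*, the actin-binding protein Iba1, differed by -0.64 ± 0.29 (adjusted p = 0.0801).

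The leukocyte signaling genes showed large differences in both mutations, except for *Dock10* and *Coro1a*. *Ptprc*, the pan-leukocyte phosphatase CD45, was at 4.60, 6.18 and 8.51 in F1178L tumors, at 5.03, 6.82 and 8.63 in R1279Q tumors and at 6.94, 8.51 and 10.53 in *MYCN* tumors. Tumor 36 was highest among F1178L, tumor 8 among R1279Q and tumor 34 among *MYCN* tumors, and 5 *MYCN* tumors exceeded every *MYCN/Alk* tumor of each mutation. *Ptprc* fell by 1.98 ± 0.38, 3.96-fold (adjusted p = 0.000142), the largest difference among the members above log2 4 in all tumors.

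*Cytip*, a cytohesin-binding protein of leukocytes, was at 2.29, 2.40 and 5.10 in F1178L tumors, at 2.35, 2.38 and 5.12 in R1279Q tumors and at 2.98, 4.91 and 8.07 in *MYCN* tumors. Tumors 36 and 8 were the only *MYCN/Alk* tumors above log2 4, against 8 of 10 *MYCN* tumors. The difference was at least 1.13 (adjusted p = 4.11e-05). *Ptpn6*, the phosphatase Shp-1 that acts behind inhibitory receptors, had a difference of at least 1.23 (adjusted p = 2.71e-05), and again only tumors 36 and 8 of the *MYCN/Alk* tumors were above log2 4. It was at 3.05, 3.17 and 4.51 in F1178L tumors, at 2.98, 3.14 and 4.34 in R1279Q tumors and at 3.24, 5.24 and 8.16 in *MYCN* tumors, 7 of which exceeded every *MYCN/Alk* tumor. Within R1279Q, the calls of *Cytip*, *Cd72* and *Ptpn6* were lost with the 3 tumors of 129B6F1 alone (adjusted p = 0.16, 0.0772 and 0.11), with fitted log2 differences of -1.94, -2.02 and -1.77. *Lcp1*, the leukocyte actin bundler plastin-2, was at 2.79, 3.93 and 4.78 in F1178L tumors, at 3.40, 4.09 and 5.51 in R1279Q tumors and at 3.96, 5.46 and 7.69 in *MYCN* tumors. It fell by 1.45 ± 0.27 (adjusted p = 0.000141), and *Coro1a*, coronin 1A, differed by -0.27 ± 0.20 (adjusted p = 0.289).

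**Figure D3:**
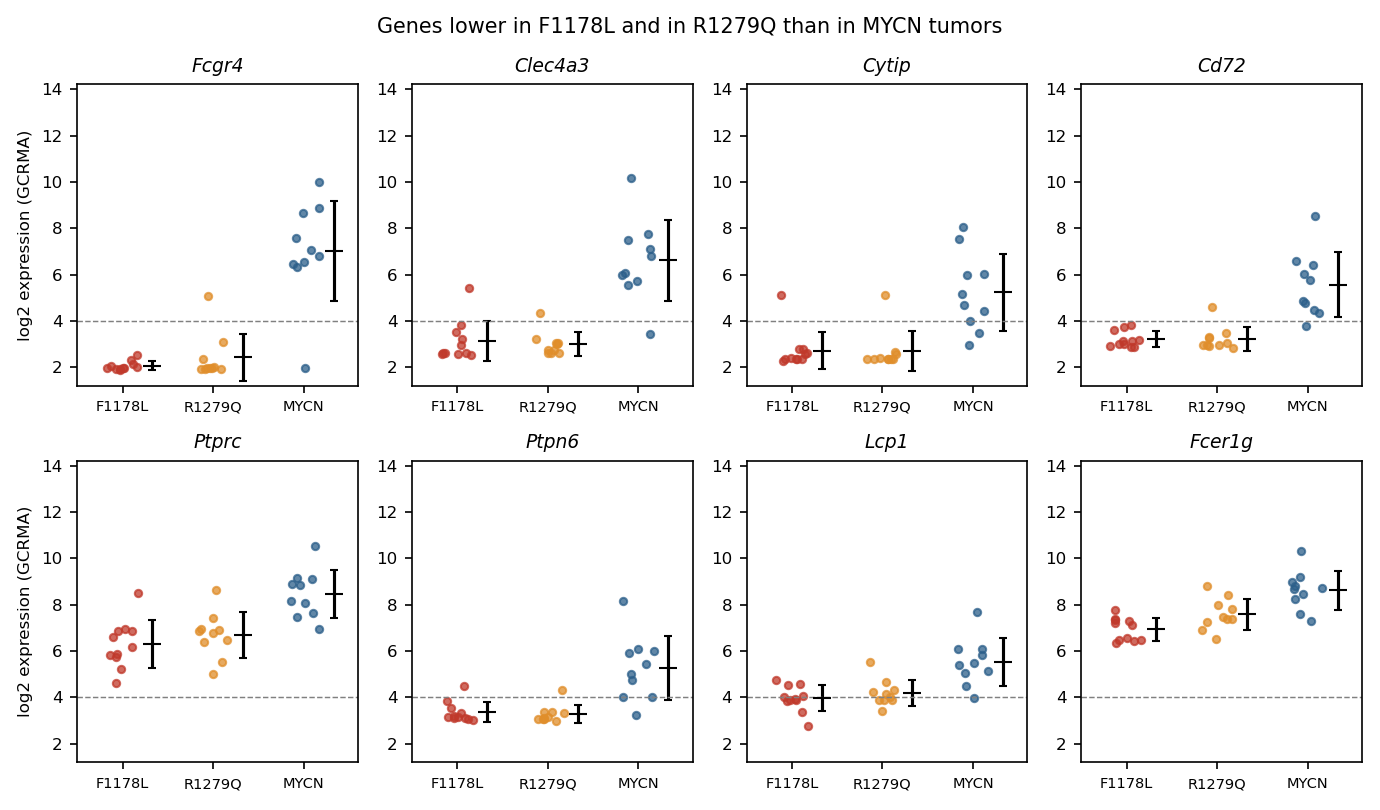
Log2 expression (y axis) of 8 genes by genotype (x axis); points are tumors, the bar beside them is the mean ± SD (n = 11 F1178L, 10 R1279Q and 10 *MYCN* tumors) and the dashed line is log2 4. *Fcgr4*, *Clec4a3*, *Cytip*, *Cd72* and *Ptpn6* are below the line in nearly all F1178L and R1279Q tumors, and *Ptprc* and *Fcer1g* are measured in all tumors and shifted down in both mutations.

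The 2 mutations were compared directly to ask which of these genes separate F1178L from R1279Q. Of the 30 members, 7 were lower and 0 higher in F1178L than in R1279Q tumors, where 5.70% of all rows tested were lower and 2.83% higher. They were *Cd5l*, *Dock10*, *Clec7a*, *Lyz2*, *Clec4n*, *Mpeg1* and *Fcgr3*. The median was -0.53 over the members and -0.06 over all rows. The count moved with single tumors. It was 14 without R1279Q tumor 5, 4 without R1279Q tumor 8, F1178L tumor 30 or F1178L tumor 36, and 3 without R1279Q tumor 13, R1279Q tumor 24 or F1178L tumor 28. *Clec7a*, *Dock10* and *Lyz2* were called in each of these.

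*Dock10*, an activator of the small GTPases Cdc42 and Rac, was at 3.87, 5.62 and 7.20 in F1178L tumors, at 6.21, 7.63 and 9.79 in R1279Q tumors and at 6.27, 7.99 and 9.25 in *MYCN* tumors. Of the F1178L tumors, 9 of 11 were below the lowest R1279Q tumor, and the R1279Q and *MYCN* tumors covered the same range. F1178L was below R1279Q, with a log2 difference of -2.35 ± 0.40, 5.10-fold (adjusted p = 0.00146), and R1279Q differed from *MYCN* by -0.06 ± 0.41 (adjusted p = 0.932). *Clec7a*, with the values given above, was lower in F1178L than in R1279Q tumors, with a log2 difference of -2.14 ± 0.41, 4.40-fold (adjusted p = 0.00337).

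*Lyz2* was at 9.64, 10.79 and 11.86 in F1178L tumors, at 10.20, 12.31 and 13.53 in R1279Q tumors and at 11.48, 12.21 and 12.80 in *MYCN* tumors. R1279Q tumors lay at the level of *MYCN* tumors, with a difference of -0.02 ± 0.31, and 7 of 10 R1279Q tumors exceeded every F1178L tumor. F1178L was below R1279Q, with a log2 difference of -1.32 ± 0.31, 2.501-fold (adjusted p = 0.0106). *Cd5l* had the largest difference, -3.04 ± 0.85 (adjusted p = 0.0275), with 5 R1279Q tumors above every F1178L tumor and R1279Q tumor 5 below every F1178L tumor; without F1178L tumor 28 or 31 or R1279Q tumor 13 or 24 it was -2.68 to -2.90 and missed the threshold (adjusted p = 0.0511 to 0.0653). *Clec4n*, dectin-2, a lectin for fungal mannans that signals through *Fcer1g*, was at 4.45, 5.68 and 6.56 in F1178L tumors, at 4.09, 7.04 and 8.45 in R1279Q tumors and at 6.28, 7.31 and 7.91 in *MYCN* tumors. F1178L was below R1279Q, with a log2 difference of -1.15 ± 0.37 (adjusted p = 0.0499), a call that leaving out any of 14 tumors in turn ended. *Mpeg1*, with the values given above, differed by -0.81 ± 0.24 (adjusted p = 0.0327), lost without any of 7 tumors. *Fcgr3* was at 5.81, 7.24 and 7.63 in F1178L tumors, at 7.19, 7.62 and 8.66 in R1279Q tumors and at 7.14, 7.86 and 8.45 in *MYCN* tumors, and differed between the mutations by -0.64 ± 0.20 (adjusted p = 0.0441), lost without any of 9 tumors.

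**Figure D4:**
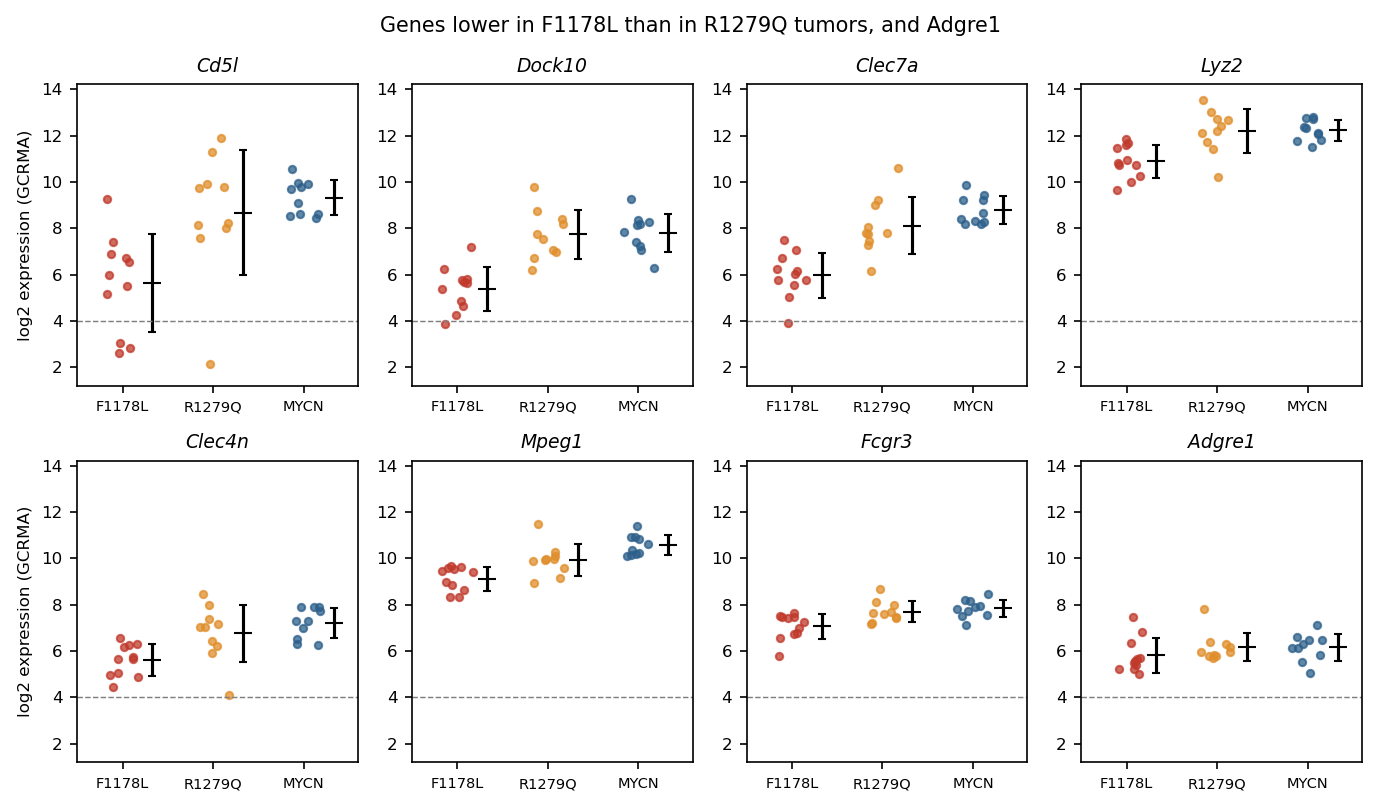
Log2 expression (y axis) by genotype (x axis) of *Adgre1* and of the 7 genes that separated F1178L tumors, which were lower, from R1279Q tumors; points are tumors, the bar beside them is the mean ± SD (n = 11 F1178L, 10 R1279Q and 10 *MYCN* tumors) and the dashed line is log2 4. R1279Q tumors lie at the level of *MYCN* tumors for *Dock10* and *Lyz2*, R1279Q tumor 5 is far below its group at *Cd5l*, and *Adgre1* shows no separation.

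Within 129S2, where F1178L mice were 5.14 to 6.29 and R1279Q mice 8.29 to 10.7 weeks old, 5 members were lower in the 4 F1178L than in the 5 R1279Q tumors, *Cd5l*, *Lyz2*, *Dock10*, *Clec4n* and *Clec7a*, and *Coro1a* was higher. In that comparison 16.4% of all tested rows were lower and 11.6% higher, so these counts are read as no result about the members. Within 129B6F1, with 6 F1178L and 3 R1279Q tumors, 0 members passed (limma, 3 at an unadjusted p under 0.05), as did 0 of the 9322 rows (462 at an unadjusted p under 0.05), so this count says nothing of the members themselves. The differences there were -2.84 for *Dock10*, -2.03 for *Clec7a*, -1.10 for *Lyz2*, -0.43 for *Clec4n* and -0.85 for *Cd5l*. Adding background to the model of the 18 tumors left *Dock10* and *Clec7a* called. Mutation and age cannot be told apart in these comparisons.

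The members that were low in both mutations did not pass the test between them. For *Ptprc* the difference of F1178L from R1279Q was -0.41 ± 0.43 with a 95% confidence interval of -1.28 to 0.47 (adjusted p = 0.579), and differences within these bounds were not resolved. For *Csf1r* it was -0.30 ± 0.25 (-0.81 to 0.20) and for *Fcer1g* -0.65 ± 0.29 (-1.24 to -0.07, adjusted p = 0.138). *Fcgr4*, *Clec4a3*, *Cd72*, *Ptpn6* and *Cytip* were near the lowest values in both mutations, and no difference could be measured there.

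Background was compared in the 18 *MYCN/Alk* tumors that the study's list assigns, 9 in 129B6F1 and 9 in 129S2, with mutation in the model. Of the 30 members, 0 passed the threshold in either direction (limma, 5 at an unadjusted p under 0.05), where 3.41% of all rows were lower and 1.58% higher in 129B6F1. The members with an unadjusted p under 0.05 were *Mrc1*, *Ctss*, *Fcgr4*, *Coro1a* and *Lyz2*. *Mrc1* averaged 7.32 ± 0.32 in 129B6F1 and 6.53 ± 1.303 in 129S2 with F1178L, and 6.78 ± 0.10 and 6.06 ± 0.54 with R1279Q (SD). The difference of 129B6F1 from 129S2 was 0.76 ± 0.31 (95% confidence interval 0.12 to 1.41, adjusted p = 0.143), and it passed without F1178L tumor 31, the 129S2 tumor with the highest *Mrc1*. *Ctss*, the lysosomal protease cathepsin S, differed by 0.70 ± 0.28 (0.10 to 1.29, adjusted p = 0.147), and *Lyz2* by -0.75 ± 0.34 (-1.47 to -0.03, adjusted p = 0.189). For *Ptprc* and *Csf1r* the intervals, -0.39 to 1.34 and -0.20 to 0.99, held 0.

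No member passed the test of whether the background difference depended on the mutation (limma, 1 at an unadjusted p under 0.05, *Fcgr4*). *Fcgr4* was above log2 4 in 1 *MYCN/Alk* tumor only, R1279Q tumor 8. Of all 9322 rows, 6 passed as lower and 1 as higher (1420 at an unadjusted p under 0.05), so the member count says nothing of the members themselves. The 4 sets of this comparison were small, and R1279Q in 129B6F1 had the widest spread, since tumor 8 was the highest and tumor 5 the lowest R1279Q tumor at many members. At *Cd5l* these tumors were at 11.28 and 2.14, and at *Clec7a* at 10.61 and 6.15. In the same background the 6 F1178L tumors ran from 2.82 to 9.28 for *Cd5l* and from 3.92 to 7.49 for *Clec7a*.

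**Figure D5:**
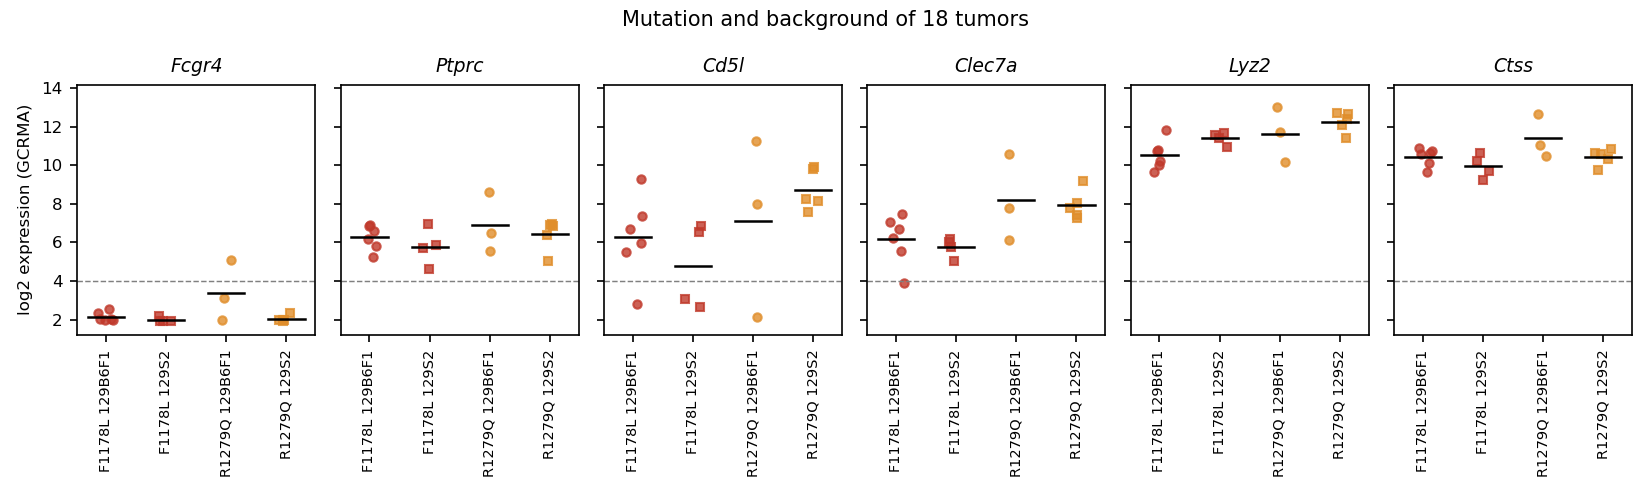
Log2 expression (y axis) of 6 genes in the 18 *MYCN/Alk* tumors of known background, by mutation and background (x axis; circles 129B6F1, squares 129S2); points are tumors, black lines are means and the dashed line is log2 4. The 3 R1279Q tumors of 129B6F1 spread widely at *Cd5l* and *Clec7a*. At *Clec7a* all F1178L tumors lie below all R1279Q tumors in 129S2. In 129B6F1 only the mean is lower, and R1279Q tumor 5 lies within the F1178L range.

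The tumors also differed among themselves. The mean over the 30 tested members was 6.12 ± 0.43 in F1178L, 6.73 ± 0.61 in R1279Q and 7.68 ± 0.60 in *MYCN* tumors (SD), with ranges of 5.37 to 6.68, 5.76 to 8.05 and 6.84 to 8.98. R1279Q tumor 8 was the highest of its group at 23 of 30 members and *MYCN* tumor 34 at 22. R1279Q tumor 5 was the lowest of its group at 16 members. *MYCN* tumor 26 was the lowest *MYCN* tumor at 10 members, *Fcgr4*, *Clec4a3* and *Cytip* among them, and tumor 33 at 11.

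After subtraction of group means, most members varied together across the 31 tumors. The correlation of a member with the mean of the 30, of which it is a part, was highest for *Laptm5* (r = 0.91) and *Mpeg1* (r = 0.91) and lowest for *Coro1a* (r = 0.13), *Dock10* (r = 0.14) and *Fcgr2b* (r = 0.26). The 10 rows outside the list with the highest r were *Cd48*, *Grn*, *Evi2a*, *Slc40a1*, *Slc11a1*, *Itgb2*, *Ms4a6c*, *Fyb*, *Gpr65* and *AW112010*, at r = 0.77 to 0.84 (rank correlation 0.72 to 0.85). Among these, *Itgb2* is the common chain of the leukocyte integrins, *Slc11a1* a metal transporter of the phagosome and *Grn* the lysosomal protein progranulin. Without R1279Q tumor 8 and *MYCN* tumor 34, which lay farthest from the median, r was 0.64 to 0.80 over 29 tumors. The points share their arrays, and the values are a description.

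Other genes of the pathway and its surroundings were taken from lists that were also set with earlier results known. In *MYCN/Alk* against *MYCN* tumors 21.6% of all rows tested were lower and 19% higher, the share to set beside the counts of these lists. Where a gene of these lists is given a difference of at least some value, its lower group averaged under log2 4. Such a gene can have passed the filter through the group where it was higher, so its p value is given as a description. Of 20 genes of the ITAM and immune kinase pathway, 17 had a row and 4 were tested, and all 4 were lower in *MYCN/Alk* tumors. *Plcg2*, the phospholipase below *Syk*, was at 3.19, 3.45 and 4.91 in F1178L tumors, at 3.44, 3.71 and 5.02 in R1279Q tumors and at 4.45, 5.93 and 6.52 in *MYCN* tumors, a difference of at least 1.51 (adjusted p = 4.72e-07). Its *MYCN* tumors were all above log2 4 and met the filter by themselves, so this p value is a description. *Skap2* and *Fyb*, adaptors behind integrins, changed by -1.36 ± 0.26 and -1.28 ± 0.27.

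Of 7 genes of MHC class II and antigen presentation, 4 were tested and 4 were lower in *MYCN/Alk* tumors (21.6% of all rows tested), with large spread in every genotype. Set against *MYCN* tumors singly, 0 of the 4 passed with F1178L and 1 of the 4, *Cd74*, with R1279Q. *H2-Aa* was at 3.57, 6.32 and 8.86 in F1178L tumors, at 3.18, 5.43 and 8.37 in R1279Q tumors and at 5.47, 7.33 and 9.93 in *MYCN* tumors, a log2 fold change of -1.54 ± 0.59 (adjusted p = 0.0377). *H2-Eb1* and the invariant chain *Cd74* changed by -1.69 ± 0.61 and -1.39 ± 0.54, and *H2-Ab1* was lower by at least 0.67. Of 12 genes of tissue-resident macrophages, 6 were tested, 5 lower and 1 higher. *Hmox1*, heme oxygenase, and *Slc40a1*, the iron exporter ferroportin, changed by -2.33 ± 0.48 and -1.34 ± 0.35, the receptor *Axl* by -1.04 ± 0.34 and *Stab1* by -0.63, and *Spic*, a factor of iron-recycling macrophages, was lower by at least 0.94. *Gas6*, a ligand of *Axl*, rose by 0.90 (adjusted p = 0.0364).

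*Csf1* and *Il34*, both ligands of *Csf1r*, were below log2 4 in every tumor, as were 8 of the 12 measured growth factor and chemokine genes in all. The tested gene of that list was *Cd47*, the signal that restrains phagocytosis, at 0.55 ± 0.17 higher in *MYCN/Alk* tumors (adjusted p = 0.0097). Of the activation genes 3 of 12 were tested and 0 passed in *MYCN/Alk* against *MYCN* tumors: *Arg1* at -0.90 ± 0.66, *Gpnmb* at -0.60 ± 0.46 and *Apoe* at 0.64 ± 0.29 (adjusted p = 0.287, 0.302 and 0.0737). With F1178L alone *Gpnmb* was lower than in *MYCN* tumors, by 1.40 on the log2 scale (adjusted p = 0.0269), and lower than in R1279Q tumors (-1.60, adjusted p = 0.0492). Of the monocyte genes only *F13a1* was tested, at -0.24 ± 0.57 (adjusted p = 0.758), and *Ccr2* and *Cx3cr1* were below log2 4 in all tumors.

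Markers of other cell types moved with genotype as well, and their part in the differences above was not tested. T cell receptor genes *Cd3d*, *Cd3e* and *Cd3g* and the 7 NK cell markers were below log2 4 in all 31 tumors, as were 6 of 7 mast cell markers and the dendritic cell gene *Flt3*. The tested T cell marker *Thy1*, which neurons express too, did not pass in *MYCN/Alk* tumors but was higher with F1178L alone (1.43, adjusted p = 0.0249), and the dendritic cell marker *Zbtb46*, also found in endothelium, was higher by at least 0.98. Of the B cell markers 0 passed the filter, yet *Ptprc*, *Cd72* and *Ptpn6* are also B cell genes: *Cd79b* and *Ms4a1* were at 4.98 and 5.55 in F1178L tumor 36, the F1178L tumor highest in *Ptprc*, *Ptpn6* and *Cytip*, and at most 2.27 and 2.55 in the other 30 tumors. *Ighm* was at 5.71 in *MYCN* tumor 34, 4.35 in *MYCN* tumor 22 and 4.26 in R1279Q tumor 8.

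The tested neutrophil marker, *S100a8*, was at 2.21, 2.82 and 11.67 in F1178L tumors, at 2.27, 3.46 and 4.89 in R1279Q tumors and at 3.64, 6.49 and 10.79 in *MYCN* tumors, lower by at least 2.26 (adjusted p = 0.00296), with the highest value in F1178L tumor 2. The erythroid gene *Alas2* fell by at least 2.10. *Alas2* exceeded log2 4 in every *MYCN* tumor (lowest 4.05), and *S100a8* in all but *MYCN* tumor 23. Both were below it in most *MYCN/Alk* tumors. They thus passed the filter largely through the *MYCN* tumors, and their differences are descriptions. Over the neutrophil list the mean per tumor was 2.33 to 4.95 in F1178L, 2.36 to 2.61 in R1279Q and 2.53 to 4.93 in *MYCN* tumors, and the neutrophil genes *Elane*, *Mpo*, *Ltf*, *Camp* and *Mmp9* were below log2 4 throughout. Over the B cell list it was 2.13 to 3.70, 2.14 to 3.44 and 2.16 to 3.06, and over the erythroid list 2.23 to 4.66, 2.33 to 2.81 and 2.66 to 4.14. Of the platelet markers *Gp1bb* rose by 0.93 ± 0.28 and *Pf4* did not pass, at -0.23 ± 0.49.

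All 4 tested endothelial markers were lower in *MYCN/Alk* tumors, where 21.6% of all rows tested were lower. The log2 fold changes were -1.74 ± 0.46 for *Emcn*, -1.42 ± 0.27 for *Esam* and -0.69 ± 0.21 for *Egfl7*, and *Cldn5* was lower by at least 1.06. Also lower were 4 of 9 fibroblast and pericyte markers, among them *Acta2* at -2.09 ± 0.60, *Tagln* at -1.87 ± 0.52 and *Rgs5* at -1.45 ± 0.37. *Dcn* at 1.39 ± 0.73 did not pass. *Fabp7*, of the Schwann cell list, was the 1 of 3 that rose, by at least 2.76. Over the endothelial list the mean per tumor was 3.20 to 4.26 in F1178L, 3.45 to 5.81 in R1279Q and 4.04 to 5.86 in *MYCN* tumors, and over the fibroblast and pericyte list 5.82 to 8.55, 5.17 to 8.49 and 6.32 to 8.24. Of the markers of the tumor cells themselves, 5 of 10 rose, among them *Dbh*, the enzyme that makes noradrenaline, at 2.69 ± 0.35 (adjusted p = 1.06e-06). No liver, kidney or adrenal cortex marker was tested, and their mean per tumor ran up to 5.97 in F1178L, 2.68 in R1279Q and 6.52 in *MYCN* tumors.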

How the data were processed

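Expression was measured in 31 mouse neuroblastomas, 1 array each, on Affymetrix mouse arrays. The authors deposited log2 values normalized by GCRMA, with 1 row per Entrez gene from a Brainarray probe annotation. Of the 17306 rows, 16464 carried 1 symbol, and 842 did not and were left unnamed. The array reports probe brightness rather than reads, so the number of tumors limits precision, not depth. Array medians lay between 4.22 and 4.66.

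Rows above log2 4 in at least 10 tumors (9322, of which 392 unnamed) entered limma 3.58.1 in R 4.3.3, in 1 fit of the 3 genotypes with eBayes and Benjamini-Hochberg adjustment at 0.05, two-sided, with 95% confidence intervals. *MYCN/Alk* is the mean of both mutations. The background comparison used the 18 *MYCN/Alk* tumors of known background with mutation in the model. The study's methods name a Student's test, which was run as an alternative. Further alternatives were testing all rows or only those above log2 6, arrays quantile-normalized or set to 1 median, a trended and robust spread, array weights, covariates, subsets by background and leaving out each tumor. Summaries and plots used Python 3.11.15, pandas 2.3.3 and matplotlib 3.10.9. The fit was tested on simulated data. No column of other samples was in the table (0 columns).

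The members and gene lists were chosen with earlier results of these data known. Every member was accounted for. Values by genotype were given for the 3 members of each role group with the largest change in *MYCN/Alk* tumors, for *Csf1r*, *Adgre1*, *Ptprc*, *Spi1*, *Tyrobp* and *Fcer1g*, and for the 5 members with the largest change past the threshold in each other comparison; the remainder are named by count or as members of a group.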

Additional observations from a re-analysis of the deposited data

Results flagged for a closer look

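Of 60 sets of 10 tumors of 1 genotype at 1 member, 13 held a tumor far from the rest. Chance gives about 1 in 20 for independent sets, but these were 30 members over the same 20 tumors, and 9 of the 13 were R1279Q tumor 8, so the count is not set against chance. The 11 F1178L tumors were too many for this rule and were not examined by it. R1279Q tumor 8 was far above its group at 9 members: *Fcgr4* at 5.09 (next tumor 3.11), *Clec4a3* at 4.34 (3.22), *Cd72* at 4.62 (3.48), *Ctss* at 12.67 (11.04), *Mpeg1* at 11.48 (10.29), *Csf1r* at 7.78 (6.01), *Adgre1* at 7.81 (6.41), *Ptpn6* at 4.34 (3.39) and *Cytip* at 5.12 (2.65). R1279Q tumor 5 was far below its group at *Cd68*, at 4.02 (next tumor 6.51), and at *Cd5l*, at 2.14 (7.60). Both tumors came from 129B6F1 mice. *MYCN* tumor 26 was far below the other *MYCN* tumors at *Fcgr4*, at 1.97 (next tumor 6.35), and *MYCN* tumor 34 far above at *Cd53*, at 5.61 (4.59).

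The effect of F1178L against *MYCN* differed from that of R1279Q against *MYCN*, by limma's test of the difference itself, at 7 members. That test is the comparison of F1178L with R1279Q given above, not a further one. Of all rows tested, 5.70% were lower and 2.83% higher in it. The F1178L effect minus the R1279Q effect was -3.04 for *Cd5l*, -2.35 for *Dock10*, -2.14 for *Clec7a*, -1.32 for *Lyz2*, -1.15 for *Clec4n*, -0.81 for *Mpeg1* and -0.64 for *Fcgr3*.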

How the results depend on the processing

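Requiring a 2-fold change left 15 of 25 members lower in *MYCN/Alk* tumors, and 325 of 2018 among all rows tested. For R1279Q against *MYCN* the count of 11 became 4 with rows above log2 6, since 7 members were then not tested (6.98% of all rows lower). It became 17 with array weights (18.7% of all rows lower, against 7.04%) and 2 with 129B6F1 tumors only (3.55% lower). For F1178L against R1279Q the count of 7 became 3 with no filter and with Student's test, where 1.84% and 2.33% of all rows were lower. Without the 4 tumors that stood apart it was also 3 (2.23% lower). With array weights it was 17, *Coro1a* among them higher (20.3% of all rows lower and 12.3% higher). It was 2 with background (2.47% lower) or with background and sex as covariates (1.06% lower). Within 129B6F1 it was 0 (limma, 3 at an unadjusted p under 0.05, and 0 of all rows). The causes of these changes were not tested, and the subsets also held fewer tumors. Leaving out each tumor in turn gave 22 to 26 members for *MYCN/Alk*, 26 to 27 for F1178L and 9 to 14 for R1279Q against *MYCN*, 3 to 14 for F1178L against R1279Q (14 without R1279Q tumor 5, 3 without R1279Q tumor 13 or 24 or F1178L tumor 28) and 0 to 1 for background. The counts over all 9322 rows moved too. For F1178L against R1279Q, 780 were lower without R1279Q tumor 5 and 232 without R1279Q tumor 24. Among the named members in *MYCN/Alk* against *MYCN*, *Adgre1* turned its sign, to 0.12 with 129B6F1 *MYCN/Alk* tumors only. *Cd5l*, *Dock10*, *Fcgr3* and *Lyz2* lost the *MYCN/Alk* call with Student's test (adjusted p = 0.0521 for *Cd5l*), and *Ms4a7*, *C1qa*, *Csf1r*, *Ctss* and *Fcgr3* with 129B6F1 *MYCN/Alk* tumors only. Of the values of named members under these alternatives, 763 of 768 for *MYCN/Alk*, 207 of 207 for F1178L and 202 of 205 for R1279Q against *MYCN*, and 132 of 170 for F1178L against R1279Q, kept their direction and side of the threshold. With rows above log2 4 in 5 tumors, chosen after the data were seen, the counts were 26, 28, 11, 6 and 0 in the same order, background last. Of the 9765 rows then tested, 2097, 2541, 693, 533 and 291 were lower in that order. No paired analysis was possible because tumor numbers are unique to a tumor. Values near the array's floor set the lower bounds, and arrays do not give a detection limit of their own.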
